A study of Bos taurus with 16 samples.

Results

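Epithelial cells are held together and oriented by a shared set of proteins, and 39 genes that encode them were followed here in the endometrium and the circulating white blood cells (WBC) of dairy cows. The genes were chosen by name, from the gene symbols that the array file gives its probes, and every one of them was found: 39 of 26554 gene names, carried by 103 of 46615 probes. They were 6 keratins, 7 claudins, 6 other tight junction genes, 8 genes of adherens junctions and desmosomes, 6 genes of epithelial identity and 6 genes of polarity and the apical surface. Of the members, 6 had 1 probe, 12 had 2, 15 had 3 and 6 had 4 or more.

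The bovine endometrium is lined and invaginated by a columnar epithelium, which forms the lumen surface and the glands, over a stroma of fibroblasts, vessels and immune cells. In such an epithelium, keratins form the intermediate filaments, claudins and occludin seal the space between neighbouring cells at the tight junction, cadherins and their catenins hold cells together at adherens junctions and desmosomes, and the Par and Crumbs complexes set the apical side apart from the basal side. Leukocytes are not joined into sheets and lack desmosomes, although some junction and polarity genes are also used by blood cells and platelets. Subclinical endometritis (SCE) is an inflammation of the endometrium that shows no clinical sign.

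The samples came from 8 multiparous Holstein cows at 45 to 55 days postpartum, all without clinical disease after calving. They were drawn from a larger set of cows aged 4 to 10 years, with no age given for single animals. SCE cows 718, 833, 836 and 846 had a histological diagnosis of endometritis, whereas cows 841, 850, 877 and 883 were healthy. A transcervical endometrial biopsy and a blood sample stabilized for RNA were taken from each cow, which gave 16 single-colour arrays in 4 groups of 4: healthy endometrium, SCE endometrium, healthy WBC and SCE WBC. The study drew 3 luteal and 1 follicular SCE cows and 2 luteal and 2 follicular healthy cows, but the labels do not tie a cycle stage to a cow, so stage could not be entered in any comparison. All endometrial arrays lay on 1 slide and all WBC arrays on the other, which means that slide and tissue cannot be told apart, whereas each row of a slide held 2 SCE and 2 healthy arrays. A biopsy is a mixture of cells, in which fewer epithelial cells and less RNA per epithelial cell cannot be told apart.

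Per array, 64.3% to 79.1% of the probes were well above background and 190 to 465 spots were flagged and left out. The leukocyte and stromal marker lists matched the labelled tissues: 10 of 10 leukocyte markers were lower in the endometrium than in WBC of healthy cows and 9 of 10 stromal markers were higher. There, 5 of 5 smooth muscle and 5 of 6 endothelial markers were also higher. The lists of epithelial cells matched less fully, with 4 of 6 epithelial and 1 of 6 ciliated cell markers higher and 0 lower. Of all genes, 19.3% were higher and 26.4% lower. One array stood apart. The endometrial array of SCE cow 833 had the lowest raw median signal of the biopsies (116, against 304 to 374 for the other 7), and it held the highest value of the 8 biopsies for 28% of all genes and the lowest for 26.5%. Its summed stromal marker signal was 74800, against 119000 to 324000 on the other biopsies, and its summed endothelial signal was 23200, against 3910 to 6540. Differences of member genes between SCE and healthy biopsies are therefore given with and without this cow. So are the tissue differences of SCE cows for the members whose call it decided or whose called fold it moved by over 1.5 times.

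All values are log2 of the quantile-normalized median spot signal, averaged over a gene's probes. They describe 1 gene across samples and are not compared in level between genes. On this scale 37 of 39 members had a probe well above background on all 4 arrays of healthy endometrium, and 37 had one on all 4 arrays of SCE endometrium. In WBC this held for 27 members in healthy cows and 26 in SCE cows. No probe was well above background on any array of healthy WBC for KRT7, CLDN1, OCLN, DSG2 and DSC2, and GRHL2 joined them in the WBC of SCE cows.

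**Figure D1:**
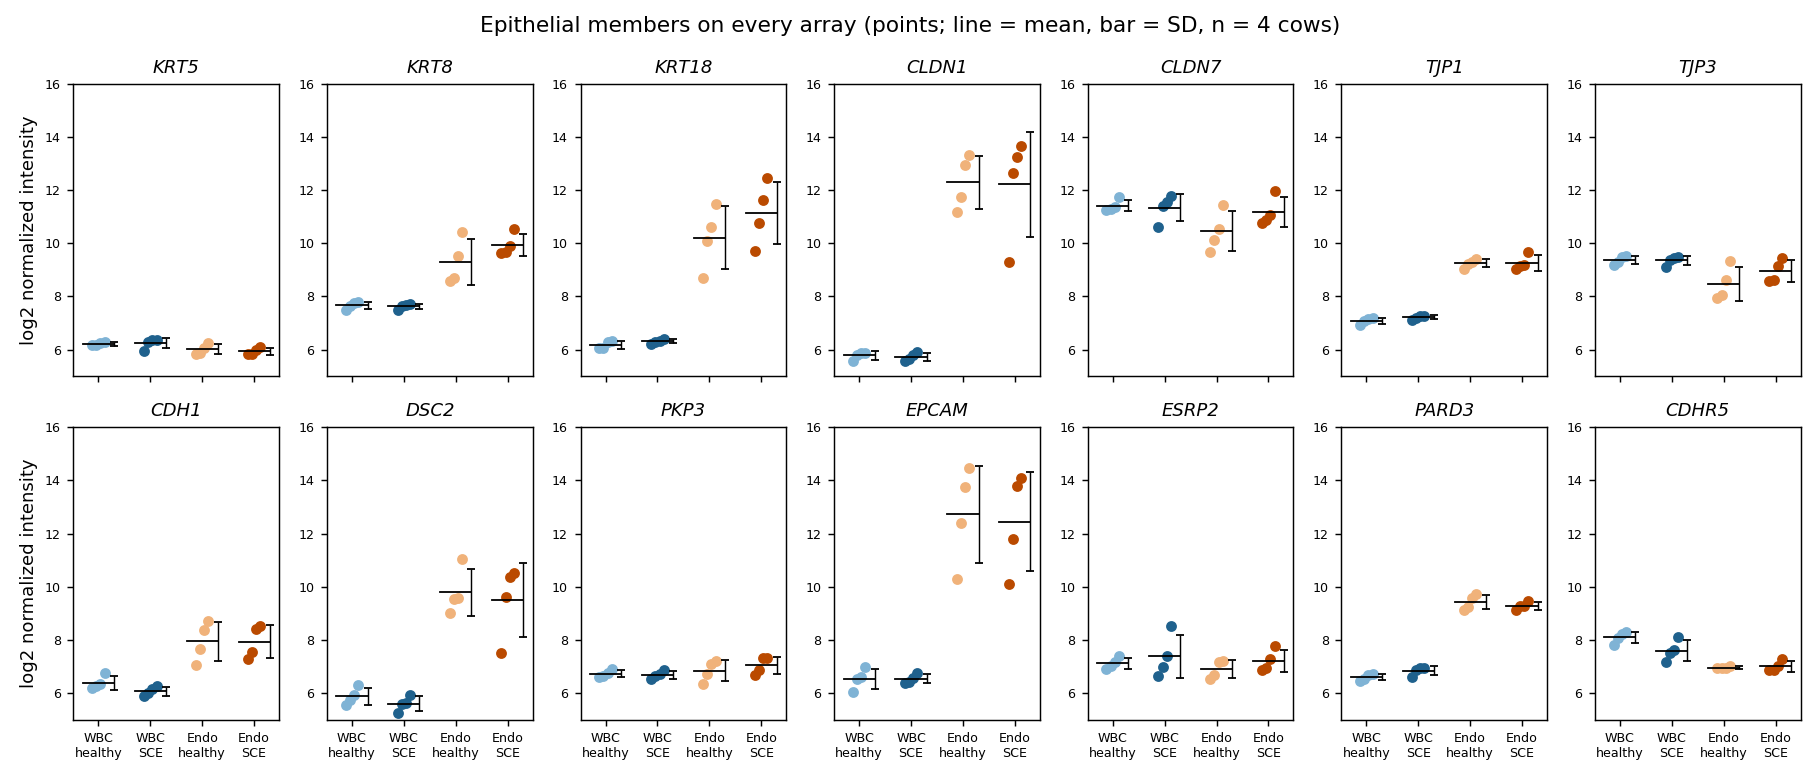
Log2 normalized signal (y axis) of 14 of the 39 genes, 1 panel per gene, in healthy WBC, SCE WBC, healthy endometrium and SCE endometrium (x axis), with 1 point per cow, a line at the mean and a bar of 1 SD (n = 4); points of a group are drawn in order of value. The tissues separate for CLDN1, EPCAM, KRT18, DSC2 and PARD3, they overlap for KRT5, PKP3 and ESRP2, and SCE and healthy points overlap in both tissues.

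The first comparison was between tissues within each health group. In healthy cows 23 of 39 members differed (limma TREAT test against a 1.2-fold change, adjusted p at or below 0.05 over all genes), where 45.7% of all genes tested did. Of these, 21 were higher in the endometrium, against 19.3% of all genes, and 2 were lower, against 26.4%. In SCE cows 24 members differed, 23 higher and 1 lower, where 43.8% of all genes differed, 19% higher and 24.8% lower. Without cow 833, whose arrays also enter the spread estimated for healthy cows, 28 and 25 members differed. Gained in healthy cows were KRT19, which was higher in the endometrium, and CLDN4, CLDN7, CRB3 and LLGL2, which were lower. CDHR5, gained in SCE cows, was also lower. No share of all genes stands beside these counts. The tissues did not overlap for 26 members in healthy cows and 25 in SCE cows, where 60.4% and 46.1% of all genes did not. The median difference over the 39 members was 1.47 log2 in healthy cows and 1.63 in SCE cows, whereas the median over all genes was -0.15 and -0.14.

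The difference between tissues depends on how the arrays were scaled, and this bears most on the members that were lower. When each tissue was quantile-normalized on its own, 28 members were higher in the endometrium of healthy cows and 0 were lower, and the split over all genes moved from 42.2% to 80.8% higher among the called genes. In SCE cows the same step gave 29 members higher and 0 lower, and the split over all genes moved from 43.4% to 81.9% higher. Of all genes, that step called 9702 higher and 2309 lower in healthy cows, and 9648 and 2139 in SCE cows. That step sets no common scale between the tissues, so any difference in brightness between the slides stays in the result. The median signal before normalization was 304 to 361 on healthy endometrial arrays and 133 to 180 on healthy WBC arrays. The part of brightness in the changes of sign was not tested. The median of all genes in healthy cows moved with the scaling, from -0.47 with the processed signal scaled to its 75th percentile to 0.33 with each tissue normalized apart. The direction was the same under all 4 scalings for 33 members in healthy cows and for 29 in SCE cows, and taken relative to the median of all genes for 37 and 35.

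It also depends on which probe stands for a gene. With each gene read from the probe of highest mean signal, 21 members were higher and 9 lower in the endometrium of healthy cows, while SCE cows gave 20 members higher and 4 lower. The share of all genes in this setting is not given here. The sign was another for 6 members in healthy cows and for 8 in SCE cows. The calls of TJP1, TJP3 and ESRP1 were lost in healthy cows and those of KRT19, TJP1 and ELF3 in SCE cows, whereas KRT8 was called in the opposite direction in both.

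**Figure D2:**
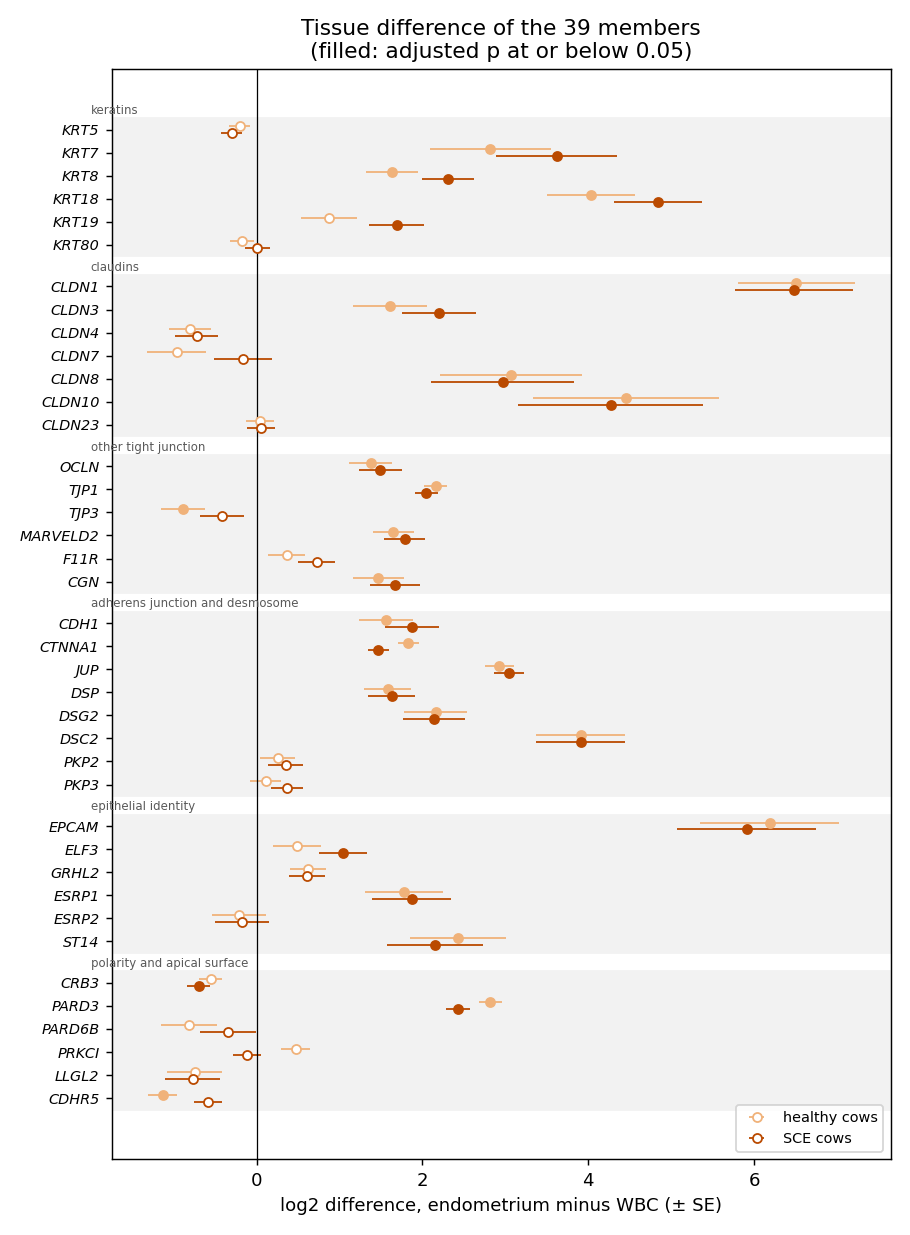
Endometrium minus WBC difference (log2, x axis) of each of the 39 genes (y axis, by role) in healthy cows and in SCE cows, with bars of 1 standard error from the limma fit and filled points for adjusted p at or below 0.05. CLDN1 and EPCAM lie farthest to the right, at 6.51 and 6.19 log2 in healthy cows, and PARD3 is the filled point above 0 among the polarity genes.

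Among the keratins, which build the cytoskeleton of epithelial cells, KRT7, KRT8 and KRT18 were higher in the endometrium of healthy cows and KRT19 joined them in SCE cows. KRT18, a partner of KRT8 in simple epithelia, read 10.60, 10.09, 8.69 and 11.48 in the endometrium of healthy cows 841, 850, 877 and 883. It read 11.64, 9.71, 12.44 and 10.77 in the endometrium of SCE cows 718, 833, 836 and 846, and between 6.05 and 6.40 on all WBC arrays. The tissues did not overlap. The difference was 4.03 ± 0.53 (SE) log2 in healthy cows and 4.84 ± 0.53 in SCE cows, or 16.3-fold and 28.6-fold (adjusted p = 1.75e-05 and 2.59e-06). In WBC a KRT18 probe was well above background on 3 healthy and 3 SCE arrays, and no probe was on all 4 of a group. These folds therefore rest in part on WBC signal that was not well above background.

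KRT8 read 9.53, 8.68, 8.58 and 10.41 in healthy endometrium and 9.90, 9.64, 10.54 and 9.67 in SCE endometrium. In WBC it lay between 7.50 and 7.80. The tissues did not overlap, with differences of 1.63 ± 0.32 and 2.31 ± 0.32 log2 (adjusted p = 0.00116 and 3.92e-05) over 4 probes. The brightest of them went the other way and passed as lower (-1.67 and -1.72 log2). KRT8 and KRT18 are neighbours in the RefSeq gene table, and so are KRT7 and KRT80.

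KRT7, a keratin of simple and glandular epithelia, was the most variable of the keratins among the healthy biopsies. It read 11.53, 8.36, 6.66 and 7.69 there, and 9.66, 10.49, 8.70 and 8.77 in SCE endometrium. With no WBC array well above background, it was at least 7.04-fold higher in the endometrium of healthy cows and at least 12.3-fold higher in that of SCE cows. Here and below, "at least" refers to the undetected WBC signal only. The spread between cows is not taken off such a fold. The first of these bounds was 3.62-fold without cow 841.

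KRT19, the smallest keratin, read 12.69, 11.95, 11.47 and 12.37 in healthy endometrium and 11.61, 11.22, 11.06 and 11.08 in healthy WBC. The biopsy of cow 877 lay within the WBC range, and the difference of 0.87 ± 0.33 log2 did not pass the test (adjusted p = 0.0917), although it did without SCE cow 833, whose arrays enter the shared estimate of spread (adjusted p = 0.0271). In SCE cows it was 1.69 ± 0.33 log2 (adjusted p = 0.0014). With its brightest probe alone KRT19 was lower in the endometrium of healthy cows (-1.47 log2, adjusted p = 0.0113), and in SCE cows the difference turned to -1.13 ± 0.40 log2 and was no longer called (adjusted p = 0.0519).

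KRT5, the type II keratin of basal cells in stratified epithelia, ranged from 5.84 to 6.25 over the biopsies and from 5.96 to 6.36 over the WBC arrays, with overlap in both health groups and differences of -0.20 and -0.30 log2 that turned to 0.22 and 0.12 when each tissue was normalized apart. For KRT80, a type II keratin of several epithelia, the differences were -0.18 ± 0.15 and 0.01 ± 0.15 log2, the second of which was -0.15 without cow 833 and -0.41 with the brightest probe. Neither gene passed the test in either health group, although both passed as lower in healthy cows with their brightest probe (-0.71 and -0.77 log2).

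Probes of a single keratin did not always move together. The sequences below are the last 30 bases of 60-base probes, shown because these pairs of probes carry opposite results for the same gene, and because 1 probe of KRT80 stood out between SCE and healthy cows. Capitals mark the polyadenylation hexamers AATAAA and ATTAAA, which were searched for on the printed strand.
KRT8, probe A_73_P245050: gctcccgcatcagctcctcggccttttccc
KRT8, probe A_73_108833: tgtaagcgtctttttcagAATAAAtccaat
KRT19, probe A_73_101632: tctccccctgacctgccAATAAAactttat
KRT19, probe A_73_P251856: ctggagcaggagattgccacctaccgaaac
KRT80, probe A_73_P331481: agcacatgttctagccaacccaccccactg
Of all probes on the array, 12.9% held a hexamer within their full length, and of the 103 member probes 10.7% did.

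The KRT8 probe A_73_P245050 read 10.05, 9.78, 10.42 and 10.24 in healthy endometrium and 11.65, 11.57, 11.59 and 12.34 in healthy WBC, and was lower in the endometrium by -1.67 ± 0.24 log2 (adjusted p = 0.000101). The KRT8 probe A_73_108833, whose printed end holds a hexamer, read 12.48, 11.27, 10.46 and 13.75 in healthy endometrium and 7.81, 7.43, 7.60 and 7.54 in healthy WBC, and was higher by 4.39 ± 0.52 log2 (adjusted p = 5.77e-06). Both gaps were wider than the spread between cows, in opposite directions. In SCE cows the same probes differed by -1.72 and 5.65 log2.

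The KRT19 probes were also called in opposite directions in healthy cows. Probe A_73_101632, which holds a hexamer in its printed end, read 14.29, 14.21, 14.78 and 14.45 in healthy endometrium and 16.47, 15.86, 15.42 and 15.83 in healthy WBC, a difference of -1.47 ± 0.39 log2 (adjusted p = 0.0113). Probe A_73_P251856 read 11.08, 9.69, 8.15 and 10.29 in healthy endometrium and 6.75, 6.58, 6.69 and 6.34 in healthy WBC, a difference of 3.21 ± 0.48 log2 (adjusted p = 5.95e-05). The small difference of KRT19 as a gene was thus the mean of a probe that was lower and one that was higher.

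Claudins are the 4-pass membrane proteins that set the tightness and the ion selectivity of the tight junction, and 4 of the 7 were higher in the endometrium of both health groups. CLDN1, a sealing claudin, had the highest difference of the 39 genes in both. It read 13.31, 11.18, 11.73 and 12.95 in healthy endometrium and 12.65, 9.30, 13.67 and 13.23 in SCE endometrium. The WBC arrays lay between 5.56 and 5.91, with both probes below the detection level on each of them. CLDN1 was at least 91.2-fold higher in the endometrium of healthy cows and at least 89-fold higher in that of SCE cows (adjusted p = 2.08e-06 and 2.34e-06), or at least 182-fold in SCE cows without cow 833.

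CLDN10, which forms ion-selective pores, was the member with the widest spread among biopsies. It read 15.07 in healthy cow 841 and 9.15, 7.86 and 8.33 in the other healthy cows, and 9.36, 9.16, 11.71 and 9.90 in SCE cows. All WBC arrays lay between 5.59 and 5.87. Over the 2 probes that were measured on every array, it was at least 22-fold higher in the endometrium of healthy cows and at least 19.4-fold higher in that of SCE cows (adjusted p = 0.00433 and 0.00615), although another probe, left out because its spots were flagged on 7 arrays, was well above background on 3 arrays of healthy WBC and 2 of SCE WBC. The bound in healthy cows rests on cow 841: without it CLDN10 was at least 6.89-fold higher, and without cow 877 or cow 883 at least 36.4-fold and 34.2-fold.

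CLDN8, a barrier claudin of tubular epithelia, read 11.22, 8.77, 7.56 and 10.70 in healthy endometrium and 10.08, 7.43, 11.94 and 7.77 in SCE endometrium. In WBC it lay between 6.30 and 6.57 and was well above background on 1 healthy and 2 SCE arrays. Its difference was 3.07 ± 0.86 log2 in healthy cows and 2.97 ± 0.86 in SCE cows (adjusted p = 0.00941 and 0.0122). It did not pass in healthy cows without cow 841 or cow 883, nor in SCE cows without cow 718 or cow 836 (2.09 log2 without the latter). It was 3.76 log2 in healthy cows without cow 877 and 3.58 log2 in SCE cows without cow 833. CLDN3, a claudin of simple epithelia, was higher by 1.61 ± 0.44 and 2.20 ± 0.44 log2 (adjusted p = 0.0119 and 0.00118, lost in healthy cows without cow 883), and its neighbour in that table, CLDN4, was not: CLDN4, also of simple epithelia, differed by -0.80 ± 0.26 and -0.72 ± 0.26 log2, and by 0.08 and 0.17 when each tissue was normalized apart, and passed as lower in healthy cows without cow 718, 833, 846 or 883 and in SCE cows without cow 718. With its brightest probe CLDN4 passed as lower in both (-1.46 and -1.33 log2).

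CLDN7, a claudin that also lies along the basolateral membrane, read 10.14, 9.67, 10.54 and 11.44 in healthy endometrium and 11.72, 11.30, 11.25 and 11.38 in healthy WBC. Only cow 883 brought the groups into overlap, and the difference was -0.96 ± 0.35 log2 (adjusted p = 0.0703). It passed the test without cow 883 (-1.30 log2) or without SCE cow 833. In SCE cows it was -0.16 ± 0.35 log2, and 0.12 without cow 846 and 0.73 when each tissue was normalized apart. CLDN23, another claudin, differed by 0.04 and 0.05 log2 and did not pass. With its brightest probe these turned to -0.70 and -0.48 log2, the first of which passed.

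Of the other tight junction genes, 4 of 6 were higher in the endometrium of both health groups: OCLN, MARVELD2, TJP1 and CGN. OCLN encodes occludin, and MARVELD2, its neighbour in the same table, encodes tricellulin, which seals the corners where cells meet. OCLN was at least 2.6-fold higher in the endometrium of healthy cows and at least 2.81-fold higher in that of SCE cows, with no WBC array well above background. MARVELD2 was higher by 1.65 ± 0.25 and 1.79 ± 0.25 log2 (adjusted p = 0.000137 and 6.01e-05). In WBC a MARVELD2 probe was well above background on 1 healthy and 1 SCE array. CGN, which encodes cingulin, a link from the junction to actomyosin, was higher by 1.47 ± 0.31 and 1.67 ± 0.31 log2 (adjusted p = 0.00235 and 0.000791).

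TJP1, the scaffold protein that ties tight junctions to actin, varied little from cow to cow. It read 9.05, 9.31, 9.40 and 9.21 in healthy endometrium, 9.20, 9.67, 9.13 and 9.03 in SCE endometrium, and 6.92 to 7.27 in WBC. The difference was 2.16 ± 0.14 log2 in healthy cows and 2.05 ± 0.14 in SCE cows (adjusted p = 9.45e-09 and 1.96e-08). Its 5 probes ranged from 0.40 log2, which did not pass, to 6.20 log2 in healthy cows, so the size of the difference rests on the probe. The brightest gave 0.40 and 0.13 log2, neither of which passed (adjusted p = 0.285 and 0.923).

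TJP3, a related scaffold, was 1 of the 2 members that were lower in the endometrium of healthy cows. It read 8.60, 8.05, 7.93 and 9.34 there and 9.51, 9.48, 9.18 and 9.30 in healthy WBC, with cow 883 overlapping the WBC range. The difference was -0.89 ± 0.27 log2 (adjusted p = 0.0377), and it did not pass without cow 718, 841, 850 or 877, after normexp background correction (-0.80 log2), with its brightest probe (-0.94 log2), or with each tissue normalized apart (-0.06 log2). In SCE cows it was -0.42 ± 0.27 log2 and did not pass, and 0.43 with each tissue normalized apart.

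F11R, a junctional adhesion molecule that is also carried by leukocytes and platelets, did not pass the test as a gene, with differences of 0.36 ± 0.23 and 0.72 ± 0.23 log2, although it passed in SCE cows without cow 846 (1.01 log2). Its probes again parted, and the ends of the pair are shown for that reason, with no hexamer in either printed end.
F11R, probe A_73_P386251: tgcaccttcctgcctcccttcctttcccac
F11R, probe A_73_120882: acagcccctttgagttggaaaacacctcat
Probe A_73_P386251 read 10.02, 9.94, 9.76 and 9.85 in healthy endometrium and 10.96 to 11.49 in healthy WBC, and was lower in the endometrium by -1.24 ± 0.24 log2 (adjusted p = 0.00148). Probe A_73_120882 read 13.51, 13.30, 12.48 and 13.17 against 11.02, 11.15, 11.14 and 11.06, and was higher by 2.02 ± 0.26 log2 (adjusted p = 1.99e-05). It was the brightest F11R probe, and with it alone F11R passed as higher in both health groups (2.02 and 2.31 log2). Neither probe overlapped between the tissues of healthy cows.

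In the group of adherens junctions and desmosomes, 6 of 8 genes were higher in the endometrium of both health groups and none was lower. CDH1, which encodes E-cadherin, read 8.36, 7.66, 7.07 and 8.70 in healthy endometrium and 8.53, 7.29, 8.40 and 7.55 in SCE endometrium. It read 6.76, 6.27, 6.33 and 6.20 in healthy WBC and 6.26, 6.01, 6.14 and 5.88 in SCE WBC. The tissues did not overlap, with differences of 1.56 ± 0.33 and 1.87 ± 0.33 log2 (adjusted p = 0.00217 and 0.000451). Of the 3 CDH1 probes, A_73_P067221 alone passed the test in healthy cows, with a difference of 3.87 log2, against 0.30 and 0.52 log2 for the others.

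CTNNA1, the alpha-catenin that links cadherins to actin in many cell types, was well above background on every array of both tissues with all 4 probes. It was higher in the endometrium by 1.83 ± 0.12 and 1.47 ± 0.12 log2 (adjusted p = 3.1e-08 and 5.95e-07). JUP, or plakoglobin, which serves in both kinds of junction, was higher by 2.93 ± 0.18 and 3.04 ± 0.18 log2 (adjusted p = 5.29e-09 and 3.7e-09), with probes that ranged from 0.19 to 6.96 log2 in healthy cows.

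DSC2, a desmosomal cadherin, read 11.04, 9.53, 9.02 and 9.56 in healthy endometrium and 10.36, 7.52, 10.52 and 9.63 in SCE endometrium. In WBC it lay between 5.26 and 6.30 and was not well above background on any array, so that it was at least 15-fold higher in the endometrium in both health groups, and at least 23.6-fold in SCE cows without cow 833. Its partner DSG2 was at least 4.45-fold higher in healthy cows and at least 4.4-fold higher in SCE cows. DSP, or desmoplakin, which anchors keratin filaments to the desmosome, was higher by 1.58 ± 0.28 and 1.63 ± 0.28 log2 (adjusted p = 0.000661 and 0.000532).

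The plakophilins, the desmosomal plaque proteins PKP2 and PKP3, did not pass the test in either health group. PKP3 read 7.20, 6.73, 6.33 and 7.09 in healthy endometrium, 7.34, 6.88, 7.31 and 6.70 in SCE endometrium and 6.53 to 6.90 in WBC, so the tissues overlapped, and its small positive differences turned to -0.69 and -0.65 log2 with the brightest of its 3 probes, the first of which passed. PKP2 differed by 0.26 ± 0.21 and 0.35 ± 0.21 log2, which turned to -1.01 and -0.67 with its brighter probe, the first again past the test. The ends of its 2 probes are shown because they were called in opposite directions in healthy cows, and neither printed end holds a hexamer.
PKP2, probe A_73_P298166: ctaaaacctatgacttgctcaagacaggca
PKP2, probe A_73_P045656: aaaaatatttgtggagttgtccaggagaaa
Probe A_73_P298166 read 6.84, 6.82, 6.94 and 6.60 in healthy endometrium and 7.98, 7.71, 7.79 and 7.75 in healthy WBC, a difference of -1.01 ± 0.21 log2 (adjusted p = 0.00499). Probe A_73_P045656 read 8.37, 6.64, 6.41 and 8.03 against 5.75, 5.95, 5.86 and 5.80, a difference of 1.52 ± 0.46 log2 (adjusted p = 0.0194). In SCE cows the first was not called and the second was, at 1.38 log2.

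Among the genes of epithelial identity, EPCAM, ESRP1 and ST14 were higher in the endometrium of both health groups, and ELF3 in SCE cows as well. EPCAM, the epithelial cell adhesion molecule, read 14.47, 12.39, 10.29 and 13.74 in healthy endometrium and 13.78, 10.12, 14.10 and 11.78 in SCE endometrium. It lay between 6.06 and 6.97 in WBC, where a probe was well above background on 3 healthy and 2 SCE arrays. The difference was 6.19 ± 0.84 log2 in healthy cows and 5.91 ± 0.84 in SCE cows, or 72.8-fold and 60-fold (adjusted p = 2.05e-05 and 3.47e-05). Its 2 probes gave 6.19 and 6.18 log2 in healthy cows. The size depends on single cows: it was 5.44 without cow 841 and 7.14 without cow 877 in healthy cows, and 6.76 ± 0.84 without cow 833 and 5.31 without cow 836 in SCE cows.

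ESRP1, an epithelial splicing regulator, was higher by 1.78 ± 0.48 and 1.87 ± 0.47 log2 (adjusted p = 0.00915 and 0.00703), a call that was lost in healthy cows without cow 841 or cow 883 and with its brightest probe (0.75 ± 0.34 log2, adjusted p = 0.158). Its relative ESRP2 read 7.19, 6.55, 6.69 and 7.21 in healthy endometrium and 7.39, 7.19, 6.90 and 7.01 in healthy WBC. These values overlapped, as did those of SCE cows, and the differences of -0.22 and -0.17 log2 turned to 0.34 and 0.44 when each tissue was normalized apart, and the second also to 0.17 with the brightest probe and to 0.32 without cow 846.

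ST14, the membrane serine protease matriptase, was higher by 2.43 ± 0.58 and 2.15 ± 0.58 log2 (adjusted p = 0.00377 and 0.00953). The transcription factor ELF3 differed by 0.49 ± 0.29 log2 in healthy cows (adjusted p = 0.369) and was higher by 1.04 ± 0.29 log2 in SCE cows (adjusted p = 0.0224). In SCE cows neither ST14 nor ELF3 passed without cow 718 or cow 836, one at a time. Without cow 833, ST14 was 2.86 ± 0.52 log2. With its brightest probe ELF3 turned to -0.58 log2 in healthy cows and to -0.04 ± 0.25 in SCE cows and was not called in either (adjusted p = 0.196 and 0.979). GRHL2, another epithelial transcription factor, did not overlap between tissues in either health group, but its differences of 0.62 and 0.61 log2 did not pass (adjusted p = 0.118 and 0.133). With its brightest probe it passed in healthy cows (1.06 log2, adjusted p = 0.0491).

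The 6 genes of polarity and the apical surface had a median difference of -0.65 log2 in healthy cows and -0.46 in SCE cows, the one role group with a median below 0, and PARD3 alone among them was higher in the endometrium. PARD3, the scaffold of the Par complex, read 9.25, 9.72, 9.56 and 9.14 in healthy endometrium, 9.28, 9.45, 9.26 and 9.11 in SCE endometrium, and 6.46 to 6.96 in WBC. The difference was 2.82 ± 0.14 log2 in healthy cows and 2.43 ± 0.14 in SCE cows (adjusted p = 5.3e-10 and 3.84e-09), and all 5 of its probes were called higher in healthy cows, by 1.93 to 4.69 log2.

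The partners of PARD3 did not pass. PARD6B, the Par-6 adaptor, differed by -0.81 ± 0.34 and -0.34 ± 0.34 log2, of which the second turned to 0.37 when each tissue was normalized apart. PRKCI, the atypical protein kinase C of the complex, differed by 0.47 ± 0.17 and -0.11 ± 0.17 log2, and passed in healthy cows with its brightest probe (0.78 log2, adjusted p = 0.0384). LLGL2, a basolateral determinant that opposes this kinase, differed by -0.75 ± 0.34 and -0.77 ± 0.34 log2 and kept its sign under the 4 scalings. It passed as lower in healthy cows without SCE cow 833 (adjusted p = 0.0358).

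CDHR5, a protocadherin of the microvilli of the brush border, was lower in the endometrium of healthy cows. It read 6.96, 6.93, 7.04 and 6.93 in healthy endometrium and 7.81, 8.22, 8.07 and 8.29 in healthy WBC, without overlap. The difference was -1.13 ± 0.17 log2 (adjusted p = 0.00036) and stayed below 0 under the 4 scalings, although it did not pass with each tissue normalized apart (-0.60 log2). In SCE cows it was -0.58 ± 0.17 log2 (adjusted p = 0.0872), and it passed there without cow 833 (-0.82 log2, adjusted p = 0.00491) and with its brightest probe (-1.18 log2). CRB3, the small Crumbs protein of the apical membrane, was lower by -0.70 ± 0.14 log2 in SCE cows (adjusted p = 0.0111), which did not pass without cow 718 or cow 846 and turned to 0.05 log2 when each tissue was normalized apart.

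Counted by probe, 54 member probes were higher and 12 lower in the endometrium of healthy cows, of 103 tested, where 46.5% of all probes were called. In SCE cows 54 were higher and 5 lower, of 102, where 45.3% of all probes were called. Of the 33 members with more than 1 probe, KRT8, KRT19, F11R and PKP2 had probes called in opposite directions in healthy cows, and KRT8 and F11R did in SCE cows. Over the 12184 genes with more than 1 probe, 4.61% had such probes in healthy cows.

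The differences of member probes went with their base composition. The 22 member probes with under 40% G and C had a median difference of 3.47 log2 in healthy cows, with 19 called higher and 0 lower, whereas the median over all probes of that composition was 0.20 log2. The 25 with 50% to under 60% had a median of -0.34 log2, with 7 higher and 5 lower. The 10 with 60% and over also had a median of -0.34 log2, with 3 higher and 4 lower. Over all probes of these compositions the medians were lower still, -0.47 and -0.69 log2. Of all such probes, 8.65% and 6.57% were called higher and 38.5% and 48.1% lower. Across the 103 member probes the correlation between percent GC and the difference was r = -0.54 in healthy cows, as against -0.22 across 46598 probes, a description only, since probes of a gene share its transcript. The 33 transcripts with more than 1 member probe belong to 32 genes. In 21 of them the probe nearest the 3′ end had a more positive difference than the probe farthest from it. The sign was kept in this count, so it does not rank the differences by size. In CDHR5 and CLDN4, for example, the probe nearest the 3′ end had the more negative difference (-1.52 against -0.34 and -1.46 against -0.13 log2). No count over all genes stands beside it.

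**Figure D3:**
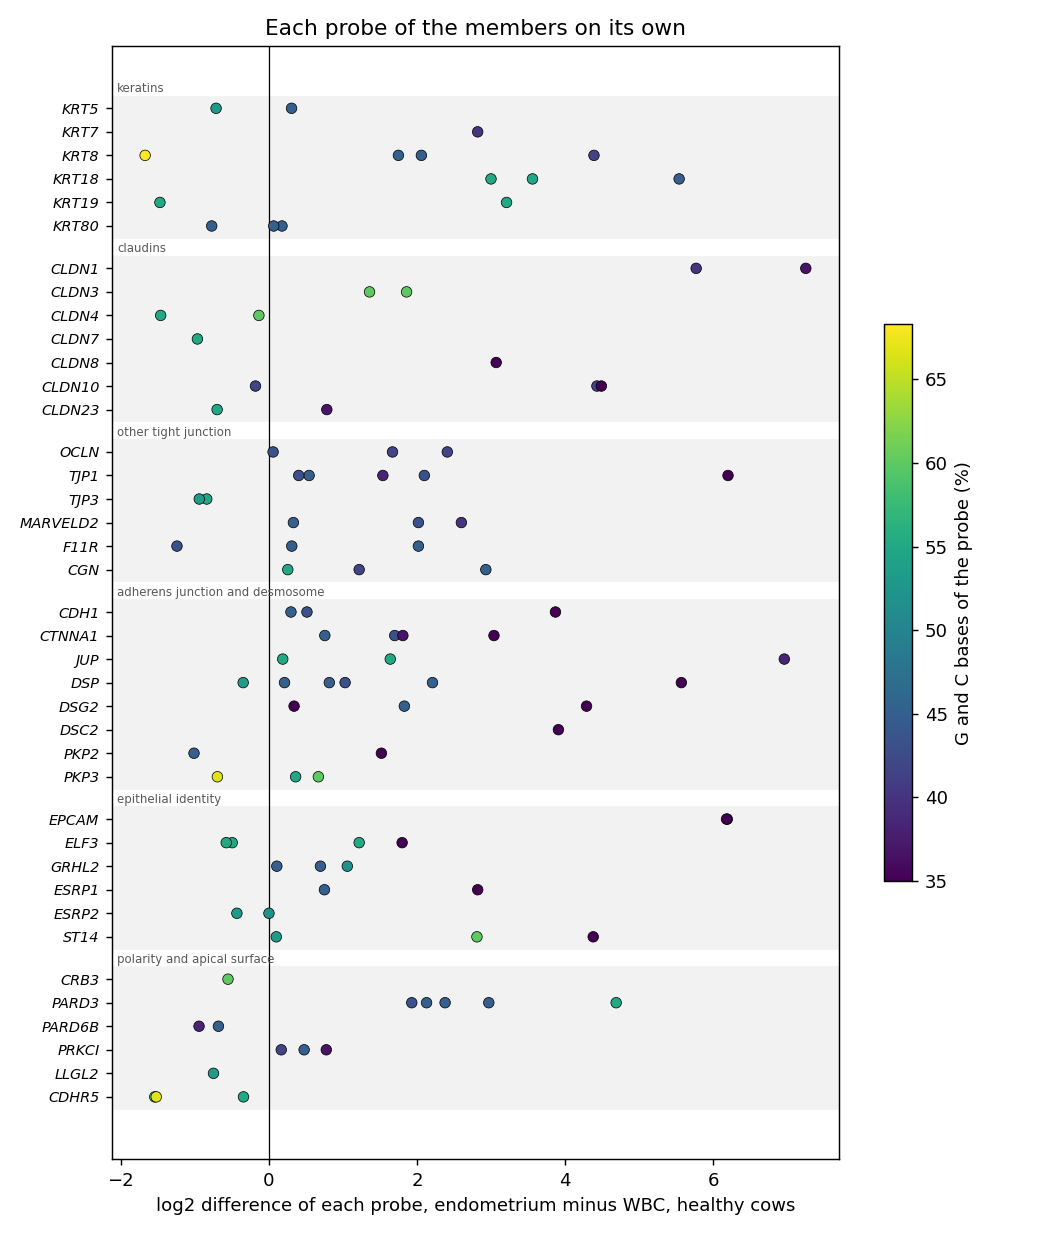
Endometrium minus WBC difference (log2, x axis) in healthy cows of each member probe, on the row of its gene (y axis, by role), shaded by the percent of G and C in the probe. Probes of KRT8, KRT19, F11R and PKP2 lie on both sides of 0, those of PARD3 and KRT18 lie on the positive side, and the values above 5 log2 include probes of CLDN1, EPCAM, JUP, TJP1, DSP and KRT18.

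The second comparison set the biopsies of SCE cows against those of healthy cows. None of the 39 members passed the limma TREAT test after adjustment (0% of all genes did), and none had an unadjusted p at or below 0.05, where 0.381% of all genes did. The groups overlapped for every member, whereas they did not overlap for 1.5% of all genes. The smallest exact permutation p that 4 cows against 4 can give is 0.029, and KRT80 came nearest, with an exact two-sided p of 0.0571.

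The direction of the differences was uneven, without any passing. In the endometrium 26 of 39 members had a higher mean in SCE cows, with a median difference of 0.09 log2, where the median over all genes was 0.0026. A group of 7 members, KRT7, KRT8, KRT18, KRT19, CLDN3, CLDN7 and ELF3, had a mean more than 0.5 log2 higher in SCE cows and 0 had a mean more than 0.5 lower, where 3.44% and 2.95% of all genes did. These genes were picked out after their values were seen. Members also varied more between biopsies than all genes did, so those shares are not a matched baseline. Their median standard deviation was 0.56 log2 against 0.20 in healthy cows, and 0.53 against 0.27 in SCE cows.

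KRT18 had the largest of these differences, 0.93 ± 0.71 log2 (exact two-sided permutation p = 0.314). The 4 SCE biopsies spanned 9.71 to 12.44 and the 4 healthy ones 8.69 to 11.48, so that most of each range was shared. KRT7 differed by 0.85 ± 0.97 log2, CLDN3 by 0.75 ± 0.58, CLDN7 by 0.72 ± 0.41, KRT19 by 0.71 ± 0.42, KRT8 by 0.64 ± 0.42 and ELF3 by 0.63 ± 0.38, with exact two-sided p-values of 0.457, 0.257, 0.2, 0.2, 0.2 and 0.2. Each of these genes was lowest in healthy cow 877 or 850 and none separated the health groups. A single healthy cow decided whether some of them had an unadjusted TREAT p at or below 0.05: KRT7 did without cow 841 (1.84 log2, unadjusted p = 0.0146), and KRT8 and CLDN7 did without cow 883 (1.01 and 1.05 log2, unadjusted p = 0.0258 and 0.0289). Other omissions shrank the differences. With a cow left out, KRT7 ran from 0.21 to 1.84 log2, KRT18 from 0.42 to 1.41 and CLDN3 from 0.34 to 1.13. CLDN7 ran from 0.45 to 1.05, KRT19 from 0.35 to 0.98, KRT8 from 0.395 to 1.01 and ELF3 from 0.415 to 0.844.

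By slide row, which held 2 SCE and 2 healthy biopsies each, 19 of 39 members had the same sign in both rows. KRT8 differed by 0.66 and 0.61 log2 in the rows and KRT18 by 0.34 and 1.53. In contrast CLDN1 differed by -1.27 and 1.11, EPCAM by -1.48 and 0.93 and CLDN10 by -2.85 and 2.70, which gave means near 0 over all cows: -0.08 ± 0.95 log2 for CLDN1, -0.28 ± 1.12 for EPCAM and -0.07 ± 1.51 for CLDN10. These standard errors were larger than the differences.

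Without SCE cow 833, 34 of 39 members had a higher mean in SCE cows, still with 0 members past the adjusted or the unadjusted test. The median difference was 0.23 log2, where the median over all genes was -0.0195. Signs depended on other single cows as well. Against the fit with all cows, 12 members changed sign without cow 833, 10 without 841, 9 without 877 and 8 without 883. The count was 6 without cow 836, 5 without 850, 4 without 846 and 3 without 718. CLDN1 went from -0.08 to 0.89 ± 0.54 log2, EPCAM from -0.28 to 0.50 ± 1.04, DSC2 from -0.28 to 0.38 ± 0.48 and ST14 from -0.24 to 0.39 ± 0.65. KRT18 went from 0.93 to 1.41 ± 0.67 and KRT19 from 0.71 to 0.35 ± 0.32. On the biopsy of cow 833, member probes with under 40% G and C were at a median of -1.19 log2 from the probes' median over the biopsies, against -0.12 for all probes of that composition, and all probes with 60% and over were at 0.38. The part of that array's composition in these values was not tested.

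**Figure D4:**
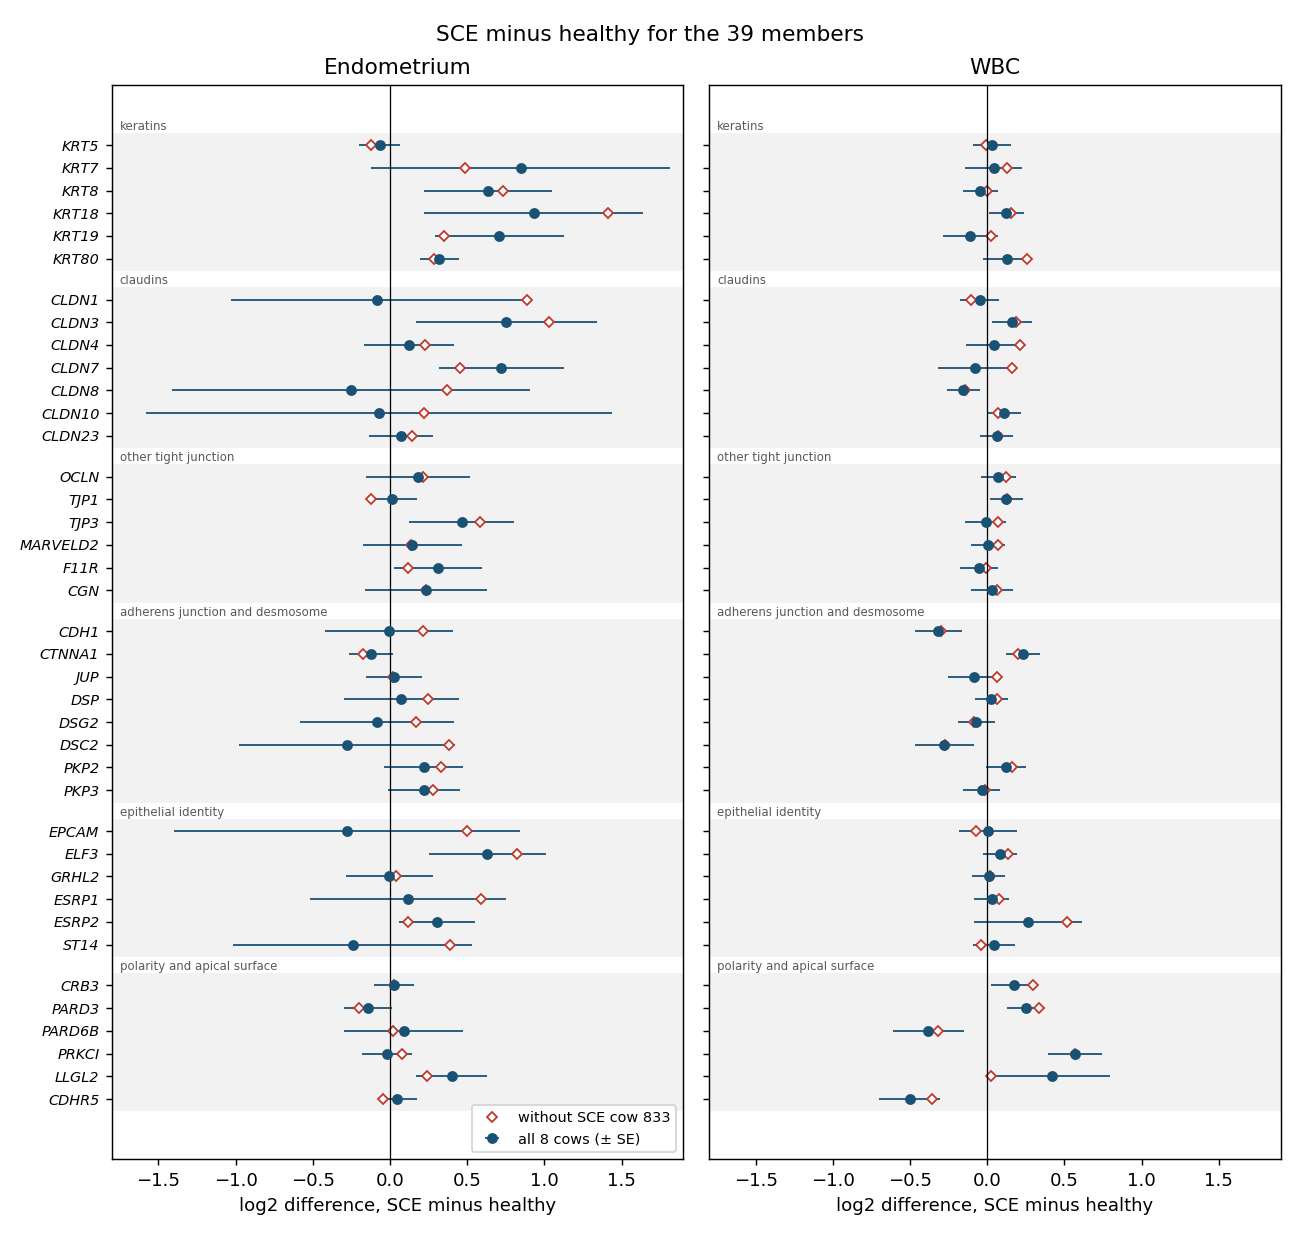
SCE minus healthy difference (log2, x axis) of each gene (y axis, by role) in endometrium and in WBC, filled points with bars of 1 standard error for all 8 cows and open diamonds for the same difference without SCE cow 833. With all cows the endometrial values run from -0.28 to 0.93 log2 with long bars and the WBC values from -0.50 to 0.57, and no gene passed the test in either tissue.

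Single biopsies differed widely within each health group. The median standard deviation of the members over healthy biopsies was 0.56 log2, against 0.20 for all genes, and over SCE biopsies 0.53 against 0.27, whereas in WBC it was 0.14 and 0.17, against 0.18 and 0.24 for all genes. SCE cow 836 was above the median of the 8 biopsies for 34 of 39 members and healthy cow 841 for 31. Healthy cows 850 and 877 were above it for 5 each, and cow 877 had the lowest value of the 8 biopsies for 22 members, where it did for 9.35% of all genes. Both extremes therefore included healthy cows.

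The members that spread most were of several kinds. CLDN10 had a standard deviation of 3.35 log2 among healthy biopsies, KRT7 2.10, EPCAM 1.84 and CLDN8 1.70. PARD3, TJP1 and CTNNA1, with 0.27, 0.15 and 0.21 log2, differed between tissues by more than 1.8 log2 in healthy cows yet varied little from biopsy to biopsy. CDHR5 had the lowest value, 0.05 log2, but only 1 of its 3 probes was well above background on any healthy biopsy. The epithelial markers CDH1, EPCAM, KRT8, KRT18, KRT19 and CLDN4 summed to 32200, 11200, 5190 and 24000 in the healthy biopsies and to 25100, 18500, 32500 and 10600 in the SCE biopsies, ranges that overlap. All of these markers are themselves members, so the sum is not an independent measure of epithelial content. The stromal markers, 10 of 10 of which had a lower mean in SCE than in healthy biopsies with none passing, summed to 216000, 177000, 264000 and 191000 in healthy cows and to 166000, 74800, 119000 and 324000 in SCE cows. Other markers moved too, with none passing. All 5 smooth muscle markers had a lower mean in SCE biopsies (median -0.34 log2, summed signal 40600 to 119000 in healthy and 33100 to 147000 in SCE cows). All 6 ciliated cell markers had a higher one (0.27 log2, 477 to 829 and 520 to 1110), as did 9 of 10 leukocyte markers (0.14 log2, 12700 to 20200 and 13000 to 27200) and 5 of 6 endothelial markers (0.29 log2, 3910 to 6540 and 3930 to 23200, the highest in cow 833). The directions of these marker lists were taken over all cows and are not given without cow 833. The part of these cell types in the differences above was not tested.

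**Figure D5:**
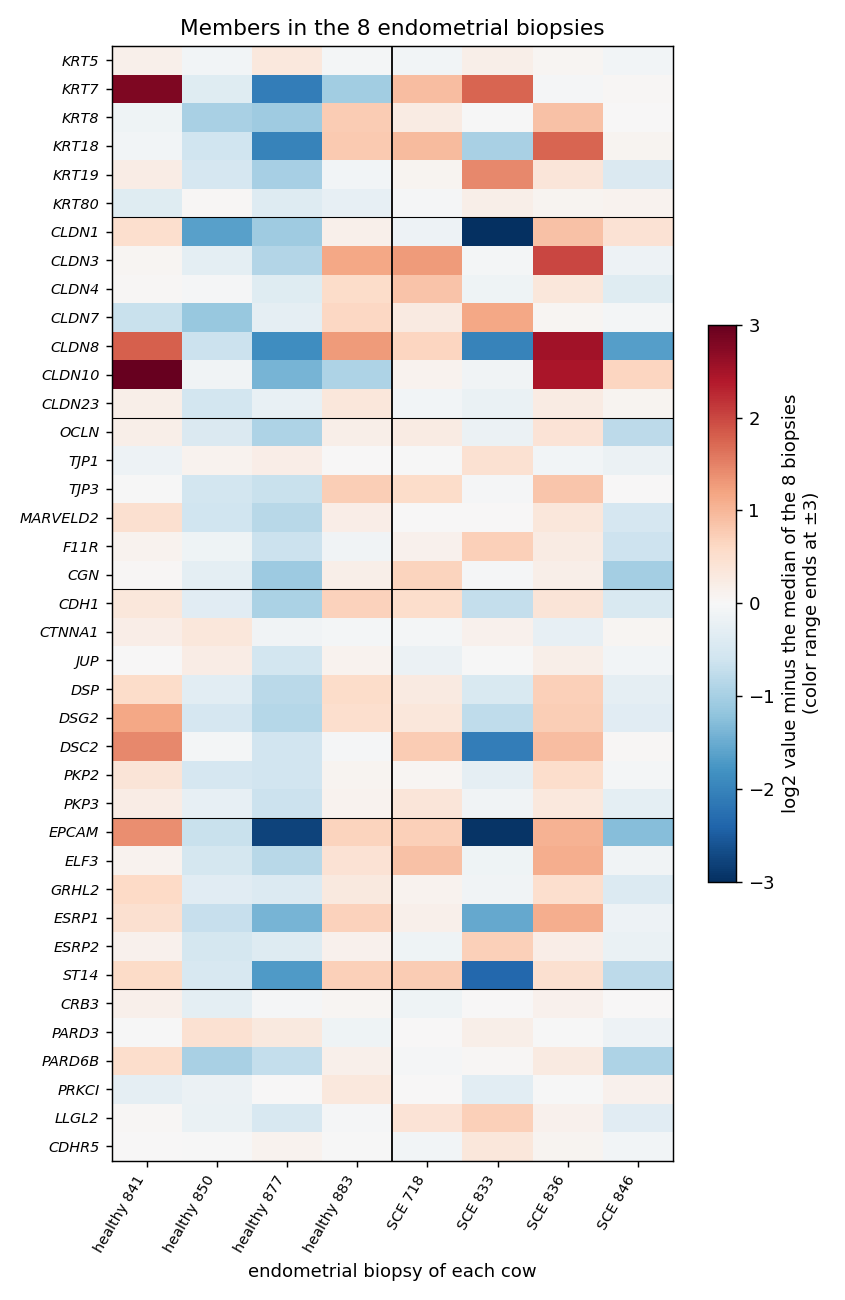
Value of each of the 39 genes (rows, by role) in each of the 8 endometrial biopsies (columns, healthy cows on the left and SCE cows on the right), as the log2 difference from the gene's median over the 8 biopsies, in color from blue (below) to red (above), with the color range ending at 3 log2 either way. Cow 836 lies above the median for 34 of 39 genes and cow 841 for 31, whereas the columns of cows 850 and 877 are mostly blue, above it for 5 genes each.

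The third comparison was between SCE and healthy cows in WBC. As in the endometrium, 0 members passed the adjusted test (0% of all genes did) and 0 had an unadjusted p at or below 0.05, where 0.0904% of all genes did. The groups overlapped for all 39 members, whereas 1.33% of all genes had groups that did not. The median difference over the members was 0.03 log2, where the median over all genes was -0.0081. A higher mean in SCE cows was seen for 25 of 39 members, and 21 of 39 had the same sign in both slide rows. PRKCI (higher) and CDHR5 (lower), named after their values were seen, were the members whose means differed by more than 0.5 log2. Of all genes, 0.768% had a mean more than 0.5 log2 higher in SCE cows and 0.576% more than 0.5 lower.

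PRKCI read 6.75, 7.09, 6.95 and 7.39 in the WBC of healthy cows and 7.84, 7.61, 7.75 and 7.25 in the WBC of SCE cows. Healthy cow 883 and SCE cow 846 crossed, and the difference was 0.57 ± 0.18 log2 (unadjusted TREAT p = 0.0554, exact two-sided permutation p = 0.0571). CDHR5 read 7.81, 8.22, 8.07 and 8.29 in healthy and 7.62, 7.17, 7.51 and 8.10 in SCE cows, where cow 846 lay within the healthy range. Its difference was -0.50 ± 0.20 log2 (unadjusted TREAT p = 0.132, exact two-sided permutation p = 0.0857). Without cow 846 the unadjusted p was 0.0151 for PRKCI and 0.0186 for CDHR5, and without cow 883 it was 0.0192 for PRKCI.

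For both genes 1 of 3 probes did not overlap between SCE and healthy cows, and the ends of these probes are shown for that reason.
PRKCI, probe A_73_P096596: cctctcttgatgtctgcagaagaatgtgtc
CDHR5, probe A_73_P312016: tcaacgactcggacgacgccaactgggcgc
The PRKCI probe read 7.12, 7.63, 7.20 and 7.75 in healthy WBC and 8.19, 8.64, 8.71 and 7.92 in SCE WBC, without overlap, a difference of 0.94 ± 0.22 log2 (unadjusted p = 0.00611, adjusted p = 1). The other PRKCI probes differed by 0.57 and 0.20 log2. The CDHR5 probe read 6.91, 7.48, 7.03 and 7.25 in healthy and 5.82, 5.62, 5.64 and 6.84 in SCE WBC, also without overlap, a difference of -1.19 ± 0.27 log2 (unadjusted p = 0.00353, adjusted p = 1). Its signal stood well above background on 4 healthy and 1 SCE array, and the other CDHR5 probes differed by 0.02 and -0.34 log2.

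These were the 2 of 103 member probes in WBC with an unadjusted p at or below 0.05 (1.94%, against 0.122% of all probes). The groups did not overlap for 4 member probes, the others being of DSP (0.25 log2) and KRT80 (0.34 log2), or 3.88% against 1.3% of all probes. In the endometrium 1 of 102 member probes had an unadjusted p at or below 0.05 (0.98%, against 0.453% of all probes). This was the KRT80 probe A_73_P331481 printed above, which read 7.09, 7.34, 6.94 and 7.13 in healthy and 7.58, 7.93, 7.85 and 7.71 in SCE endometrium, a difference of 0.64 ± 0.14 log2 (unadjusted p = 0.0119, adjusted p = 1). A second KRT80 probe, A_73_P039401, also did not overlap (0.40 ± 0.13 log2), and the third overlapped with a difference of -0.08 log2. In WBC the probe A_73_P331481 differed by 0.02 log2.

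Whether the SCE difference was unequal between the tissues was tested directly, as an interaction in the 4-group limma fit. After adjustment 0 members passed (0% of all genes did), and 2 members had an unadjusted p at or below 0.05, where 1.77% of all genes did. They were PRKCI, with -0.59 ± 0.25 log2 (endometrium minus WBC, unadjusted p = 0.0305), and CDHR5, with 0.55 ± 0.25 log2 (unadjusted p = 0.0409). In the endometrium PRKCI differed by -0.02 and CDHR5 by 0.05 log2 between SCE and healthy cows, so in both genes the difference lay on the WBC side.

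Genes of the same structures outside the 39 were counted from lists of names, to be read against the shares of all genes, 19.3% higher and 26.4% lower in healthy cows and 19% and 24.8% in SCE cows. In healthy cows 8 of 17 other tight junction genes were higher in the endometrium and 2 lower, 10 of 20 other adherens junction and desmosome genes were higher and 1 lower, and 10 of 20 other epithelial identity genes were higher and 0 lower. Of 9 other keratins, 0 were higher and 2 lower, and of 11 other polarity genes 2 were higher and 2 lower. The counts of SCE cows were 8 higher and 2 lower for tight junctions, 8 and 0 for adherens junctions and desmosomes, 12 and 0 for identity, 1 and 0 for keratins and 2 and 2 for polarity. Between SCE and healthy cows none of these genes passed in either tissue.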

How the data were processed

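Endometrial biopsies and WBC of the same 8 cows were hybridized by the authors to bovine single-colour Agilent arrays, and the deposited files hold the spot intensity of 16 arrays, extracted per the labels with Agilent Feature Extraction 10.10.1.1, with probes that the authors designed on Ensembl transcripts of the UMD3.1 assembly. The authors' deposited normalized table was used only as an alternative. Control spots and spots flagged as non-uniform or as population outliers were removed, and the log2 median intensity was quantile-normalized over 16 arrays without background correction. Spots of a probe were averaged, and a gene is the mean of its probes measured on all arrays. Gene names are those of the deposited files, and renaming through RefSeq accessions and symbols left the 103 member probes as they were. The number of arrays limits the precision.

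SCE and healthy cows were compared in each tissue with limma 3.58.1 (R 4.3.3) and the TREAT test of a 1.2-fold change, over 8 arrays per fit. Tissues and the interaction were fitted over 16 arrays in 4 groups, the interaction with eBayes and no fold threshold. p-values were adjusted by Benjamini-Hochberg over all genes, with a threshold of 0.05, and single genes were also given a two-sided exact permutation test, which has 70 possible splits. A fold given as "at least" sets the mean of the brighter tissue against the higher, per array, of the lowest signal among detected probes and the dim probe's own signal. The WBC mean so obtained was the measured one, apart from DSG2 in SCE cows (5.644 against 5.643). These folds are therefore the measured differences and carry the spread between cows. The tests were checked on simulated data.

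The members and the gene lists were chosen with earlier results of these data known. Values per array are given for genes with an unadjusted TREAT p at or below 0.05 or no overlap between SCE and healthy cows, for the genes with the largest and smallest tissue difference in each role group (in healthy cows), and for CDH1, EPCAM, KRT8 and KRT18. KRT7, KRT19, KRT80, CLDN8, CLDN10, PRKCI and the single probes were added after their values were seen. The cow pairs the tissues, since both samples came from 1 animal: the correlation of a cow's deviations between tissues ran from -0.22 to 0.1. Alternatives covered background correction, scaling, probe choice, filters, thresholds, blocks and each cow left out.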

Additional observations from a re-analysis of the deposited data

Results flagged for a closer look

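In groups of 4, 5 values of 156 lay far from the other 3, where chance flags about 1 in 20 groups and 7.45% of groups over all genes were flagged. All were in WBC. KRT7 read 5.48 in healthy cow 877, against 5.82 to 5.83 in the other healthy cows. LLGL2 read 14.28 in the same cow, against 14.89 to 14.90. CLDN8 read 6.30 in healthy cow 883, against 6.53 to 6.57, and CLDN10 read 5.79 there, against 5.59 to 5.61. KRT5 read 5.96 in SCE cow 718, against 6.30 to 6.36. KRT7, CLDN8 and the probes of CLDN10 used for its gene value were not well above background on these arrays.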

How the results depend on the processing

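Between SCE and healthy cows 0 members passed after adjustment in either tissue, and 0 in the interaction, under every alternative run. Counts at an unadjusted p at or below 0.05 were small and moved. In the endometrium the count was 0, and it was 1 with a TREAT threshold of 0 or with each probe tested on its own (chosen after seeing the data), and 0 to 2 with a cow left out. In WBC it was 0, and it was 2 with the processed signal, with a filter on dim probes, with a TREAT threshold of 0 or by probe, 1 with the authors' table, the brightest probe, a 1.1-fold threshold or all 16 arrays in 1 fit, and 0 to 2 with a cow left out. In the interaction it was 2, with 1 for the brightest probe and 0 to 6 with a cow left out (6 without 883, 4 without 841 or 846). Member counts between tissues ran from 20 to 28 in healthy cows and from 21 to 25 in SCE cows with a cow left out. Pairing by cow, as a replicate block, gave 23 and 24 members between tissues and 0 in the interaction, and changed no call.

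Some gene differences between tissues changed sign. With each tissue normalized apart, which leaves slide brightness in the difference, KRT5 was 0.22 and ESRP2 0.34 in healthy cows. In SCE cows KRT5 was then 0.12, CLDN7 0.73, TJP3 0.43 and ESRP2 0.44. With the brightest probe, PKP3 was -0.69 and KRT8 -1.67 in healthy cows, and PKP3 was -0.65, ESRP2 0.17 and KRT8 -1.72 in SCE cows. In all, 6 and 8 members changed sign with that probe, and 3 calls were lost in each health group, with KRT19 at -1.13 and ELF3 at -0.04 in SCE cows. The filter on dim probes gave PKP3 -0.69 and CLDN23 -0.70 in healthy cows and ESRP2 0.17, CLDN23 -0.48 and PKP2 -0.67 in SCE cows. With a cow left out, PKP3 ran from -0.028 to 0.29 (lowest without 841) in healthy cows, and CLDN7 from -0.67 to 0.12 and ESRP2 from -0.61 to 0.32 (both highest without 846) in SCE cows. The cause was not tested. Of 815 values of named genes, 775 kept direction and side of the threshold. Genes below background in WBC have only a bound there.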
